A study of Equus caballus with 20 samples.

Results

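The genes of intraflagellar transport, the BBSome and the centrosomal CEP family were followed in RNA sequencing of horse oviduct epithelium. They were chosen by name: every feature whose symbol starts with IFT, BBS or CEP followed by a digit, and 11 transport genes listed by symbol. The rule found 64 of the 26740 features in the deposited table. Of these, 14 carry the IFT prefix, 7 the BBS prefix, 33 the CEP prefix and 10 are from the listed genes. DYNC2H1 was not found under that symbol. All 64 had reads and all 64 exceeded 1 CPM (counts scaled to the library total) in at least 5 libraries, the filter that kept 14692 of the 20350 features with reads.

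The tissue came from Warmblood mares 4 days after ovulation and consisted of epithelial cells of the oviduct where its ampulla joins the isthmus. PI denotes the oviduct on the ovulation side (ipsilateral) of pregnant mares and PC their opposite (contralateral) oviduct. CI and CC denote the ipsilateral and contralateral oviducts of cyclic, that is non-pregnant, mares. Each group has 5 libraries, described as biological replicates and numbered 1 to 5. All 4 groups share the breed, the day and the site, and no treatment or genetic change is labelled. The epithelium was bulk tissue, so fewer cells of a type and less RNA per cell cannot be told apart.

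Intraflagellar transport carries tubulin and membrane proteins along the axoneme and is needed to build almost every cilium. IFT-B particles ride kinesin-2 towards the tip, and IFT-A particles with dynein-2 return cargo to the base, while the BBSome is an adaptor that takes membrane proteins out of the cilium. CEP proteins build the centriole, which becomes the basal body of each cilium, and multiciliated cells of the oviduct carry many such basal bodies beneath the motile cilia that help to move the egg and embryo.

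Libraries held 2795168 (PI1) to 10126484 (CI2) reads, recovered from the deposited values. FOXJ1, the master regulator of motile cilia, stood at 2774 to 6344 normalized counts over the 20 libraries, and the epithelial adhesion gene EPCAM at 1115 to 2413. DNAH5, which encodes an outer arm dynein of the beating axoneme, stood at 17180 to 28744. The cytokeratins KRT8, KRT18 and KRT19 were not found under those symbols. Markers of other cells were present: the summed leukocyte list (12 genes tested) ranged from 631 to 3502 normalized counts, and the stromal list (8 genes) from 846 to 6519. Mitochondrial transcripts, counted by symbol, took 1.27% (CC2) to 8.62% (CI3) of reads. The count covers symbols that start with MT- or with ND and a digit, and ATP6 and ATP8. Any mitochondrial transcripts under other symbols were left out. A single feature without a symbol took 14.4%, 27.8% and 15.4% in PI1, PI4 and CI3.

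The members together took 0.620% ± 0.101 of the deposited counts in PI, 0.607% ± 0.0654 in PC, 0.590% ± 0.0766 in CI and 0.601% ± 0.135 in CC (SD, n = 5). Single libraries ran from 0.459% (CC2) to 0.756% (CC4), both in the same group, so the spread within CC exceeded the distance between any group means. Most members were well covered. CEP55 was supported by 2 to 170 reads a library and CEP295NL by 7 to 41, and the next lowest was IFT22 with at least 18. Mean levels over 20 libraries ran from 22.8 normalized counts for CEP295NL, 25.6 for CEP55 and 65.1 for IFT22 to 2162 for CEP350, 2382 for CEP126 and 2749 for IFT122. These are not compared between genes, because a longer transcript yields more reads and transcript lengths were not used here.

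The first question was how the ipsilateral oviduct differed between pregnant and cyclic mares. No member passed the test there: limma with Benjamini-Hochberg adjustment over all 14692 features called 0 of 64 members at an adjusted p of 0.05, and 0.0% of all features. At an unadjusted p under 0.05 there were 0 members, against 3.5% of all features (514). EdgeR and DESeq2 also called 0 features here, between the sides and for the interaction. Levels were above those of cyclic mares in 48 of 64 members, while 48.1% of all features were above 0. The median log2 difference was 0.09 for the members, which ran from −0.25 (CEP76) to 0.44 (CEP41), and −0.01 for all features. For 0 members did the groups separate without overlap, against 0.191% of features separating upward and 0.402% downward.

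With CPM in place of the deposited scaling, which shifts all genes of a library alike, 37 of 64 members were above 0 with a median of 0.04, and 39.7% of all features with a median of −0.06. The mean depth was 5042520 reads in PI and 6558880 in CI. With log2 reads of the library as a covariate, an alternative added after the data were seen, 33 of 64 members were above 0 with a median of 0.0012, and 50.8% of all features with a median of 0.0040.

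**Figure D1:**
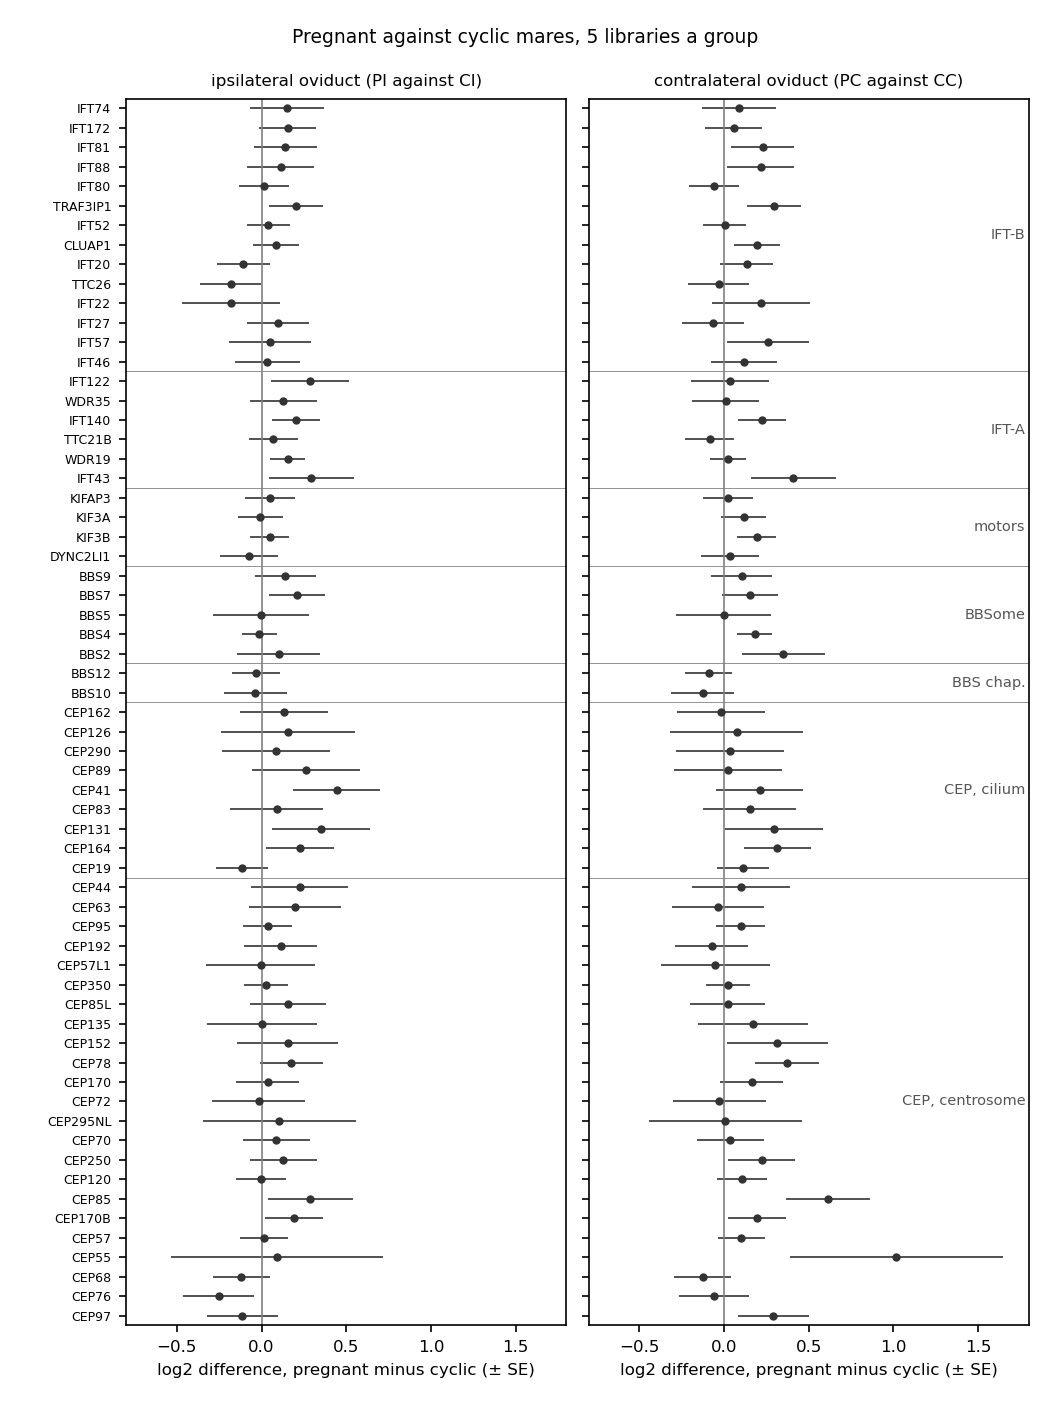
Log2 difference of 63 members (points, bars ± SE from limma) between pregnant and cyclic mares, with the ipsilateral oviduct on the left and the contralateral on the right, ordered by role. Most points lie slightly above 0, 47 on the left and 49 on the right, and CEP55 and CEP85 on the right lie farthest out.

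Among IFT-A genes, which serve the return transport, all 6 were above 0 on the ipsilateral side, with a median log2 difference of 0.18 (0.13 in CPM). With reads as a covariate 5 of 6 were above 0, with a median of 0.10. WDR19, a core IFT-A subunit, stood at 928, 984, 946, 815 and 900 normalized counts in PI1 to PI5 and at 733, 873, 791, 879 and 835 in CI1 to CI5. PI4 lay below 3 of the 5 CI libraries and the others above all of them, a log2 difference of 0.15 ± 0.11 (SE). IFT140, another core subunit, stood at 2498, 2073, 2105, 1827 and 1967 in PI and at 1513, 1607, 2401, 1730 and 1904 in CI. CI3 was above all PI libraries except PI1, and the log2 difference was 0.20 ± 0.14. IFT122 differed by 0.29 ± 0.23, with means of 3104 ± 770 and 2550 ± 648 (SD, n = 5). WDR35, a peripheral IFT-A subunit, averaged 525 ± 87.7 and 486 ± 122 and differed by 0.13 ± 0.20. None of these passed, and the lowest adjusted p of any member in this comparison was 0.9991.

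Of the 14 IFT-B genes, 11 were above 0, with a median of 0.07. In CPM it was 7 of 14 with a median of 0.02. TRAF3IP1, a microtubule-binding IFT-B protein, stood at 858, 733, 907, 750 and 764 normalized counts in PI and at 579, 538, 982, 655 and 806 in CI. The CI values spread wider, from below every PI library to above every one, and the log2 difference was 0.20 ± 0.16. IFT88, a core subunit whose loss prevents cilium assembly, averaged 860 ± 57.9 in PI and 806 ± 170 in CI. IFT172, which acts in turnaround at the ciliary tip, averaged 1801 ± 304 and 1629 ± 357. IFT80 averaged 860 ± 75.4 and 849 ± 45.8, and IFT57 1033 ± 350 and 993 ± 296 (SD, n = 5). IFT20, which also sits at the Golgi, was lower in PI at 292 ± 29.6 than in CI at 321 ± 77.8, a difference within the spread of either group.

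The motor genes gave small differences. KIF3A and KIF3B, the motor subunits of kinesin-2, differed by −0.01 ± 0.13 and 0.05 ± 0.12 on the log2 scale. Their accessory subunit KIFAP3 differed by 0.05 ± 0.15, and DYNC2LI1, a light intermediate chain of dynein-2, by −0.08 ± 0.17. KIF3B values were 515, 521, 581, 502 and 558 normalized counts in PI and 528, 485, 544, 501 and 527 in CI, so the groups covered nearly the same range.

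BBSome genes gave 3 of 5 above 0, with a median of 0.10. BBS4, a subunit that also associates with centriolar satellites, differed by −0.01 ± 0.10, BBS9 by 0.14 ± 0.18 and BBS2 by 0.10 ± 0.25. The means in PI and CI were 316 ± 22.7 and 319 ± 15.7 for BBS4, 1253 ± 132 and 1144 ± 192 for BBS9, and 418 ± 93.6 and 389 ± 86.9 for BBS2. The chaperonin-like genes BBS10 and BBS12, which help the BBSome assemble, differed by −0.04 ± 0.18 and −0.03 ± 0.14.

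Of the CEP genes known mainly for the cilium, 9 of 10 were above 0 on this side, with a median of 0.18. In CPM the count was also 9, and with reads as a covariate 4 of 10 were above 0 with a median of −0.06. CEP41, which supports tubulin glutamylation in the axoneme, had the smallest p of the 64 members. Its values were 347, 174, 294, 292 and 367 normalized counts in PI and 191, 153, 339, 138 and 291 in CI. PI2 was low and CI3 and CI5 were high, so the groups overlapped, and the log2 difference was 0.44 ± 0.26 (limma, unadjusted p = 0.0980). CEP164 and CEP83, proteins of the distal appendages that dock the basal body, differed by 0.23 ± 0.20 and 0.09 ± 0.27. CEP290, a transition zone protein, averaged 1445 ± 399 in PI and 1405 ± 563 in CI (SD, n = 5).

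The 23 remaining CEP genes, with roles at the centrosome, gave 17 above 0, with a median of 0.09. In CPM 12 were above 0, and with reads as a covariate 7 of 23 with a median of −0.06. CEP152 and CEP192, which recruit the kinase that starts centriole duplication, differed by 0.16 ± 0.30 and 0.11 ± 0.22. CEP85, a centrosomal protein tied to centriole duplication and linkage, differed by 0.29 ± 0.25 and CEP76, which limits centriole reduplication, by −0.25 ± 0.21.

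The same comparison was then made for the contralateral oviduct. Again 0 of 64 members passed the adjusted threshold (0.0% of all features), and 1 member, CEP85, had an unadjusted p under 0.05, against 4.55% of all features (669). DESeq2 called 6 features and 0 members, and edgeR 0 of either. Levels were above those of cyclic mares in 50 of 64 members (51.8% of all features), with a median of 0.10 against 0.01 for all features, and a range from −0.13 (BBS10) to 1.02 (CEP55). For 0 members were the groups without overlap, against 0.313% of features upward and 0.272% downward. Without CC2, the deepest CC library and the one with the lowest share of member counts, 31 of 64 were above 0 and the median was −0.0016. In CPM the count was 37 with a median of 0.04, where 39.6% of all features were above 0 and their median was −0.05. In edgeR and in DESeq2 the count was 40, with medians of 0.06 and 0.05 (46.9% and 45.6% of all features). With reads as a covariate it was 54 with a median of 0.17 (49.9% of all features, median −0.00097), the mean depth being 6706150 reads in PC and 5713530 in CC.

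CEP85 stood at 121, 64.1, 86.4, 132 and 66.5 normalized counts in PC1 to PC5 and at 59.3, 49.4, 55.7, 43.4 and 89.6 in CC1 to CC5. Only CC5 reached into the PC range, where it lay above 3 of the 5 PC libraries. The log2 difference was 0.61 ± 0.25 (limma, unadjusted p = 0.0230, adjusted p = 0.9998). Leaving out single libraries gave 0.48 to 0.77, and without PC4 its unadjusted p was no longer under 0.05. On the ipsilateral side CEP85 was 124, 59.3, 104, 92.3 and 73.2 in PI and 74.4, 56.6, 82.8, 53.6 and 98.6 in CI.

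CEP78, a centriole protein that also regulates cilium formation, stood at 73.2, 71.6, 79.1, 69.6 and 74.3 normalized counts in PC. CC values were 48.8, 38.4, 56.6, 65.1 and 80.5. The PC libraries were tightly grouped, and 4 of the 5 CC libraries lay below all of them while CC5 lay above. The log2 difference was 0.37 ± 0.19. TRAF3IP1 averaged 767 ± 89.9 in PC and 631 ± 123 in CC (SD, n = 5), and differed by 0.29 ± 0.16 on the log2 scale.

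CEP55, a midbody protein that brings the abscission machinery to dividing cells, had the largest contralateral difference, 1.02 ± 0.63 on the log2 scale. Its values were 22.6, 14.1, 53.1, 99.4 and 11.1 normalized counts in PC and 2.64, 12.8, 14.4, 28.4 and 18.4 in CC. PC3 and PC4 were high, CC1 had only 2 reads, below the floor of 3 reads (3.95 normalized counts there), and the other 7 libraries overlapped. DESeq2 gave CEP55 an unadjusted p under 0.05 there and limma did not.

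By role, the contralateral counts above 0 were 11 of 14 IFT-B, 5 of 6 IFT-A, 4 of 4 motor, 4 of 5 BBSome, 0 of 2 chaperonin-like, 9 of 10 cilium CEP and 17 of 23 centrosome CEP genes. In CPM these counts were 9 of 14 for IFT-B, 2 of 6 for IFT-A and 2 of 4 for the motors. They were 7 of 10 for the cilium CEP and 13 of 23 for the centrosome CEP genes, and unchanged for the BBSome and chaperonin-like genes. BBS4 was 301, 380, 352, 352 and 399 in PC and 296, 306, 327, 317 and 320 in CC. PC1 lay among the CC libraries and the other 4 above them, a log2 difference of 0.18 ± 0.10. BBS2, at 513 ± 150 in PC and 403 ± 123 in CC, differed by 0.35 ± 0.25, and IFT88, at 855 ± 149 and 761 ± 261, by 0.22 ± 0.20 (SD, n = 5).

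The sides were compared next. In pregnant mares 0 of 64 members passed (0.0% of features), 0 had an unadjusted p under 0.05 (0.762% of features), and 42 were higher ipsilaterally, with a median of 0.06 (44.6% of features, median −0.03). In CPM 34 of 64 were above 0 (35.5% of features). With reads as a covariate it was 14 of 64 with a median of −0.05 (48.2% of features, median −0.0054), so the direction of this count turned. The groups overlapped in every member, while 0.0476% of features were without overlap upward and 0.0885% downward. BBS4 had the smallest p, with a log2 difference of −0.17 ± 0.10, and CEP41 followed with 0.32 ± 0.22. CEP97, which caps centrioles and holds back cilium formation, differed by −0.25 ± 0.21, IFT20 by −0.18 ± 0.16 and IFT57 by −0.27 ± 0.24.

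In the pregnant groups the library numbers were taken to pair the oviducts. This rests on correlations in these same data, as the labels do not say which libraries share a mare. On that reading the side difference can be followed number by number. BBS4 was lower ipsilaterally in all 5, by log2 differences of −0.12, −0.19, −0.09, −0.13 and −0.31. The same held for BBS2, CEP55, CEP97 and IFT46, which makes 5 members (7.57% of all features). BBS5, CEP192, CEP350, CEP44, CEP57L1 and IFT74 were higher ipsilaterally in all 5, which makes 6 members (4.88% of all features). For CEP350, a protein of the mother centriole and its surroundings, these log2 differences were 0.0081 to 0.11, and for BBS5, a lipid-binding BBSome subunit, 0.0041 to 0.90. With the number as a block in the fit, 0 members passed, and BBS4 had an unadjusted p of 0.113 (limma, adjusted p = 0.822). That fit also blocked the cyclic libraries by number and shared the estimate of the spread with them. Its p is therefore not a paired test of the pregnant libraries alone, which was not run.

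In cyclic mares 0 of 64 members passed (0.0% of features) and 0 had an unadjusted p under 0.05 (0.286% of features). This fit also treated the libraries as unpaired. Ipsilateral levels were above contralateral in 50 of 64, with a median of 0.06 (51.4% of features, median 0.01), and in CPM in 28 of 64 with a median of −0.01, where 32.8% of all features were above 0 and their median was −0.07. No member separated the sides, against 0.0272% of features upward and 0.0408% downward. CEP78 had the smallest p, at 90.8, 56.6, 81, 60 and 82.5 normalized counts in CI against the CC values above, a log2 difference of 0.36 ± 0.19. CEP85 differed by 0.29 ± 0.25, CEP135, a scaffold of the centriole wall, by 0.34 ± 0.33, CEP152 by 0.31 ± 0.30 and the IFT-A gene TTC21B by −0.15 ± 0.14.

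Whether pregnancy acted differently on the sides was tested as an interaction, ipsilateral minus contralateral. It was called for 0 members (0.0% of features) and 0 had an unadjusted p under 0.05 (0.32% of features). The value was above 0 in 30 of 64 members with a median of −0.01, against 43.4% of features and a median of −0.04. CEP97 had the smallest p, −0.40 ± 0.30, followed by BBS4 at −0.19 ± 0.15, IFT20 at −0.24 ± 0.22, CEP55 at −0.92 ± 0.89 and CEP19, a basal body protein that recruits transport proteins, at −0.23 ± 0.22. This fit treated the libraries as unpaired. With the replicate number as a block, features at an unadjusted p under 0.05 rose from 47 to 267 (limma), with 0 members among them.

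**Figure D2:**
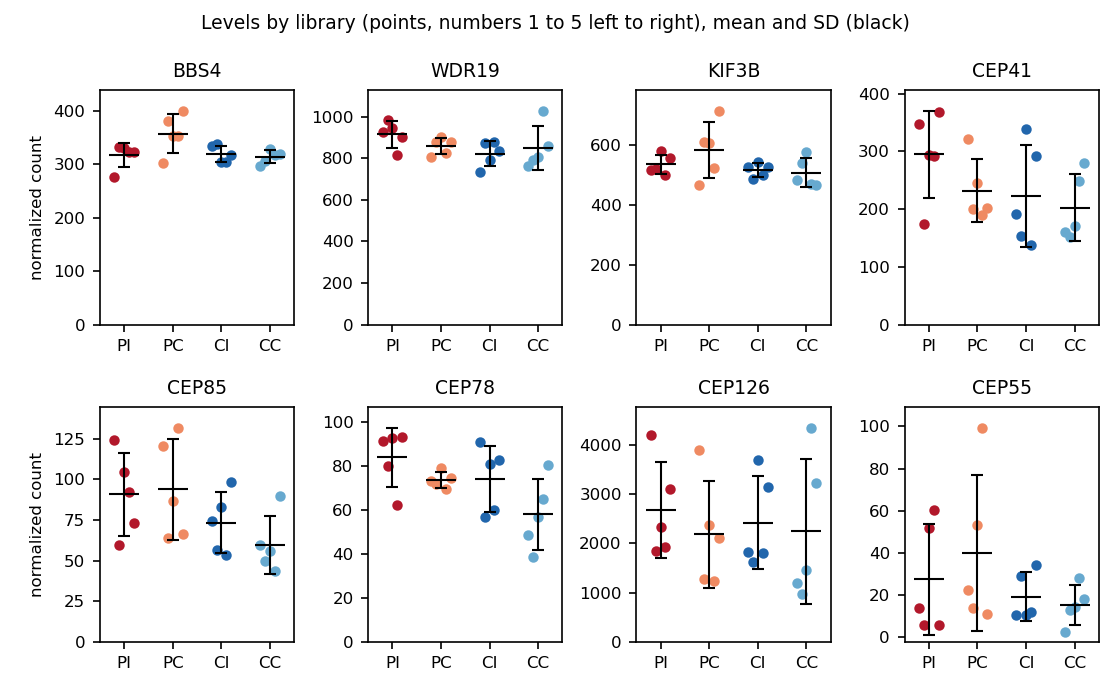
Normalized counts of 8 members in every library (points, numbers 1 to 5 from left to right in each group), with group mean and SD in black. BBS4, WDR19 and KIF3B lie within narrow bands in all 4 groups, whereas CEP126 and CEP55 spread widely inside each group.

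Although no group difference passed, the members differed widely in how far libraries of the same group lay apart. The SD of log2 values within groups had a median of 0.31 over the members and 0.40 over all features tested. It was narrowest in BBS4 (0.10), WDR19 (0.12) and KIF3B (0.14), and widest in CEP55 (1.08), CEP295NL (0.76) and CEP126 (0.69). WDR19 spanned 733 to 1027 normalized counts over all 20 libraries, a ratio of 1.40, and CEP126, a protein of the centrosome and cilium base, 970 to 4345, a ratio of 4.48. By role the median SD was 0.20 for the motors, 0.27 for IFT-A, 0.28 for IFT-B, 0.28 for the BBSome, 0.35 for centrosome CEP genes and 0.45 for cilium CEP genes.

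**Figure D3:**
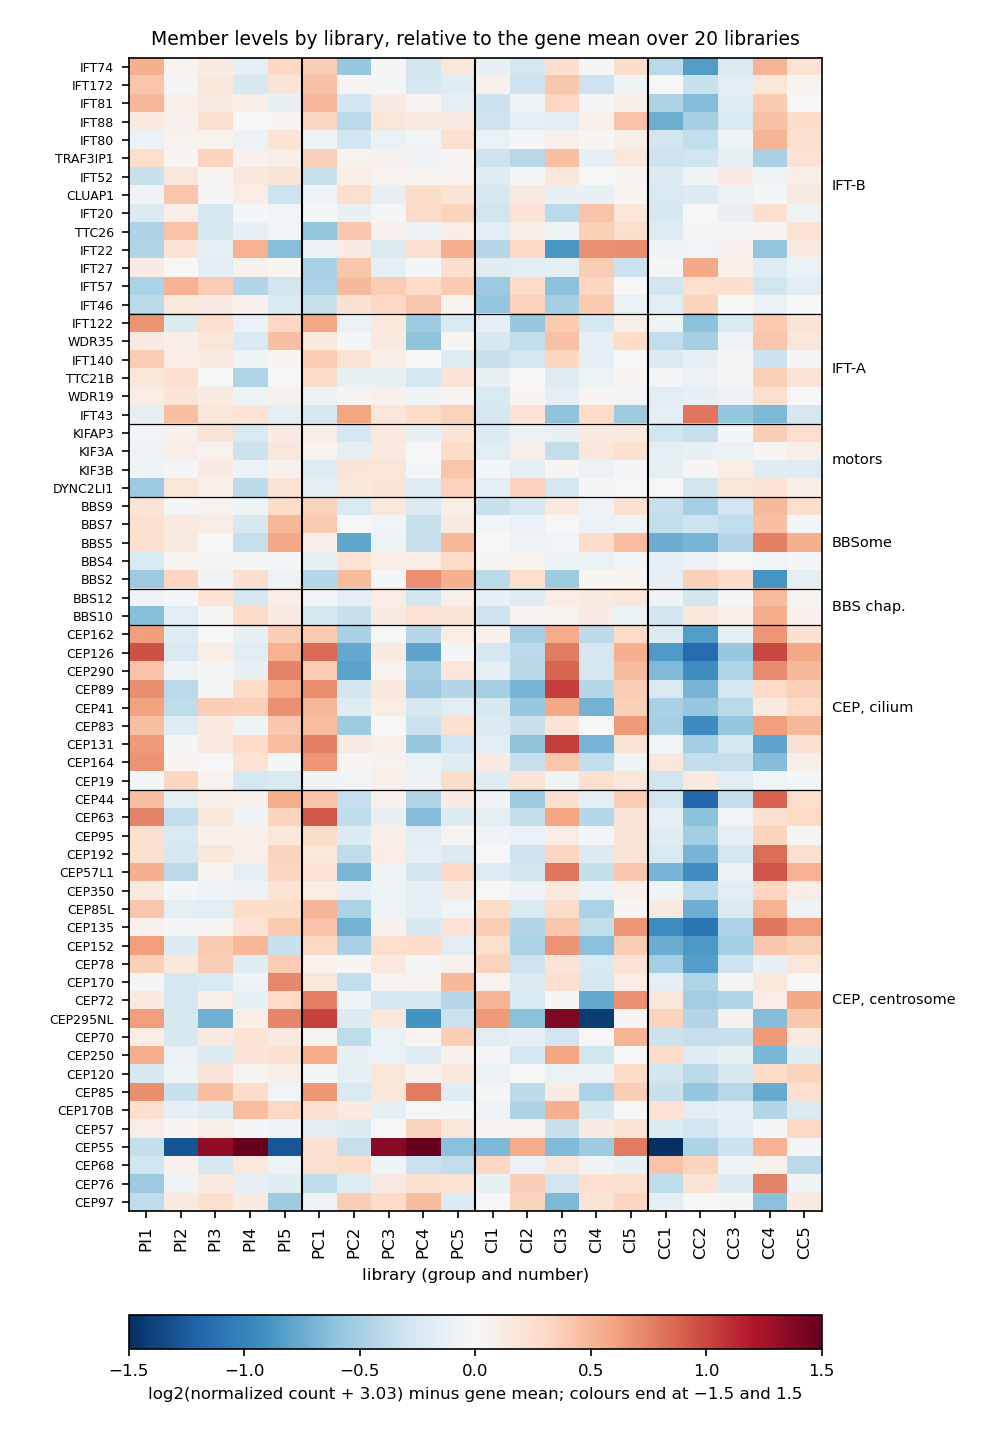
Log2(normalized count + 3.03) of 63 members in each of 20 libraries minus the mean of that gene, red above and blue below, colours ending at −1.5 and 1.5, with members ordered by role. Many CEP genes, IFT74 and IFT122 are red together in PI1, PC1, CI3 and CC4 and blue together in CC2, while BBS2 and IFT57 run the other way.

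Much of this spread was shared between members. PI1, PC1, CI3 and CC4 were high together, and CC2, CI2 and PC4 low together, in CEP126, CEP162 and IFT122. PI1 and PC1 were taken to share a mare, and CI2 and CC2 may do so, so these libraries are not all independent. CEP126 stood at 4199 in PI1, 3908 in PC1, 3705 in CI3 and 4345 in CC4, and at 970 in CC2, 1630 in CI2 and 1245 in PC4. IFT122 showed 4250, 3986, 3501 and 3492 in the first 4 libraries and 1742, 1790 and 1839 in the other 3. IFT57 went the other way in the same libraries, with 740, 741, 670 and 833 against 1230, 1267 and 1265. BBS2 did too, with 284, 308, 286 and 224 against 534, 496 and 672.

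The pattern was not limited to these genes. The leading axis of variation computed from the 14628 features that are not members held 31.2% of their variance. Across 20 libraries, which may include both oviducts of a mare and for which no p is given, 19 of 64 members correlated with it above 0.8, against 8.26% of all features. The highest were CEP162 (r = 0.97), which helps to assemble the transition zone, CEP126 (0.96) and IFT122 (0.94). No member lay below −0.8, against 9.08% of all features, the lowest being BBS2 (−0.79), IFT46 (−0.70) and IFT57 (−0.70). The axis itself had r = −0.81 with log2 reads and 0.61 with the mitochondrial share of reads as counted above. What underlies it was not tested.

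**Figure D4:**
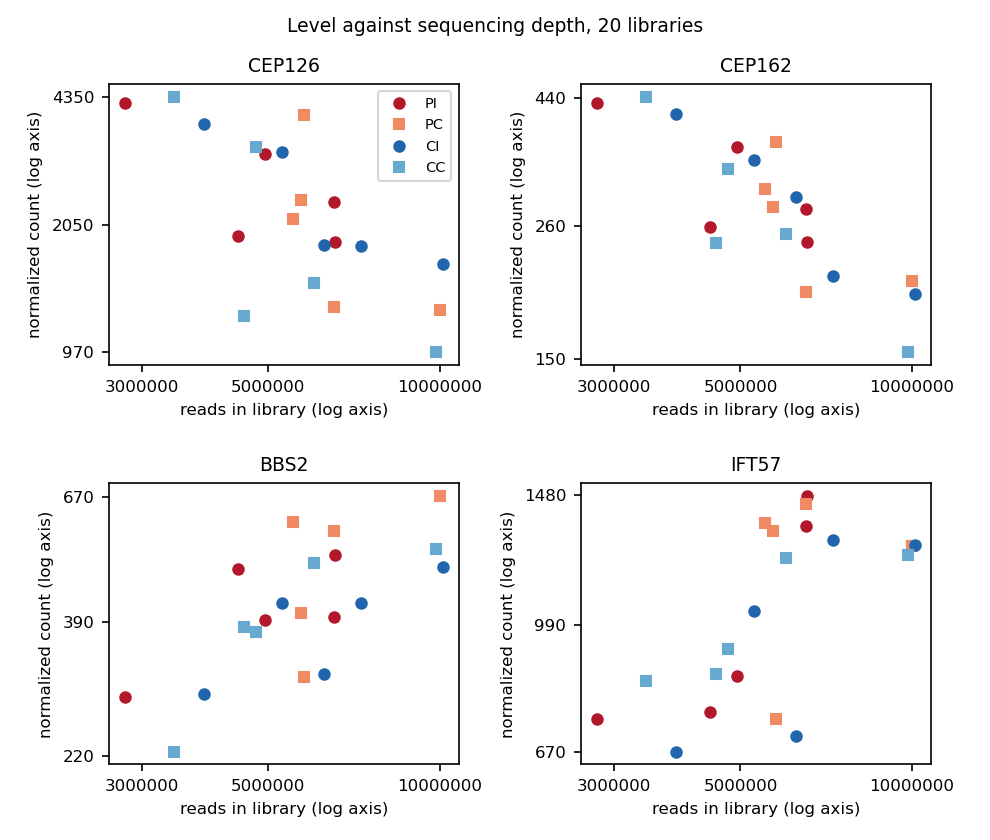
Normalized count of 4 members (log axis) against the reads of the library (log axis), 20 libraries coloured by group. CEP126 and CEP162 decline towards deeper libraries, and BBS2 and IFT57 are low in the 3 shallowest libraries.

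Because depth moved with this axis, each member was correlated with log2 reads within each side (10 libraries, permutation test with 100000 resamples, adjusted over 14692 features). Ipsilaterally 19 members passed, 16 with negative r (8.39% of all features) and 3 with positive r (13.2% of all features). CEP250, a linker between centrioles, had r = −0.91 (rho = −0.95, permutation p = 8.0e-05 and 0.00010, adjusted p for r = 0.00678), and −0.95 without PI1 and CI2, the libraries farthest from the median depth. CEP164 also had r = −0.91, and −0.77 without these libraries. CEP162 had r = −0.87 and IFT122 r = −0.87, and −0.74 and −0.62 without them. The positive members were CEP76 (r = 0.88, 0.68 without them), DYNC2LI1 (0.83 and 0.55) and BBS4 (0.76 and 0.32), so that of BBS4 rests largely on those 2 libraries. In CPM 9 members passed.

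Contralaterally 0 members passed, with 0.0749% of all features passing at negative and 0.0476% at positive r. At an unadjusted p under 0.05 there were 22 members, against 27.8% of features. CEP162 had r = −0.82 there (rho = −0.71, permutation p = 0.00484 and 0.0274, adjusted p for r = 0.0805) and IFT122 r = −0.75. CEP250 and CEP164 had r = 0.12 and 0.04, far from their ipsilateral values, though the difference between sides was not tested. The median over members was −0.38 ipsilaterally and −0.37 contralaterally, against 0.05 and 0.13 over all features.

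FOXJ1 was set against the members in the same way. By the permutation test 0 members passed ipsilaterally (0.0% of features at either sign) and 0 contralaterally (0.0476% positive, 0.0885% negative), with r from −0.58 to 0.59 and from −0.86 to 0.87. At an unadjusted permutation p under 0.05 there were 0 members ipsilaterally (6.54% of features) and 21 contralaterally (26.0% of features). Over all 20 libraries, described without a p, the lowest r was that of BBS12 (−0.74), BBS5 (−0.72) and IFT80 (−0.71), and the highest that of BBS2 (0.59), CEP97 (0.54) and IFT43 (0.52). DNAH5 and HYDIN, genes of the motile axoneme itself, ranked these members differently. BBS12, BBS5 and IFT80 had r = 0.29, 0.49 and 0.35 with DNAH5, and 0.47, 0.52 and 0.48 with HYDIN. BBS2, CEP97 and IFT43 had −0.07, 0.19 and 0.11 with DNAH5, and −0.41, −0.39 and −0.40 with HYDIN. With the leading axis of the other features BBS12, BBS5 and IFT80 had r = 0.60, 0.66 and 0.58. BBS2, CEP97 and IFT43 had −0.79, −0.65 and −0.67 with it. The reason for the different ranking was not tested.

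TOP2A, a topoisomerase of dividing cells, was followed closely by CEP55. Ipsilaterally r was 0.92 (rho = 0.82, permutation p = 0.00026 and 0.00585, adjusted p for r = 0.0496), and 0.88 without PI4 and PI5. CEP55 was the only member that passed, as did 0.517% of all features at positive r and 0.00681% at negative r, and 3 members had an unadjusted p under 0.05 (5.46% of features). In CPM and with a pseudocount of 0.1 CPM the adjusted p was 0.0676 and 0.0515. Contralaterally r was 0.95 (rho = 0.82, permutation p = 0.00044 and 0.00569, adjusted p for r = 0.0557), 0.79 without PC4 and CC1, and 0 members passed (0.497% and 0.00681% of features), with 2 at an unadjusted p under 0.05 (10% of features, 1474). PI3 and PI4 had 648 and 1003 TOP2A counts with 51.8 and 60.4 of CEP55. PC3 and PC4 had 618 and 1728 with 53.1 and 99.4, while CC1 was lowest in both at 64.6 and 2.64. Next after CEP55 over 20 libraries came CEP97 (r = 0.56) and CEP85 (0.52), and the lowest were TTC21B (−0.44), CEP68 (−0.34) and BBS12 (−0.27).

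**Figure D5:**
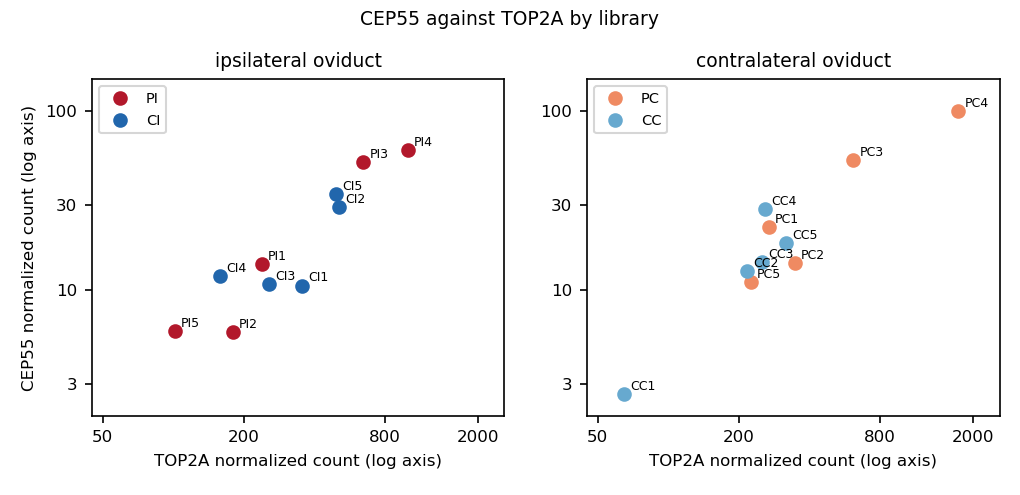
CEP55 against TOP2A in normalized counts (log axes), ipsilateral libraries on the left and contralateral on the right. Points rise together on both sides, with PI3, PI4, PC3 and PC4 at the top right and CC1 at the bottom left.

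Known physical partners were paired to see whether they moved together between libraries. The 15 pairs were chosen after the values had been seen, and 30 tests were adjusted together (10 libraries a side, permutation). The adjustment covers neither that choice nor the other pairs of members, so these p values only describe the chosen pairs. The median r of these pairs was 0.44 ipsilaterally and 0.31 contralaterally, against 0.17 and 0.26 over all 2016 pairs of members. Ipsilaterally 12 of 15 had r above 0, against 58.4% of all pairs of members, and contralaterally 10 of 15, against 66.7%. How many of all pairs reach the r values named below was not counted. IFT74 and IFT81, which together bind tubulin, had r = 0.87 contralaterally (rho = 0.84, permutation p = 0.00111 and 0.00403, adjusted p for r = 0.0196) and 0.68 ipsilaterally (adjusted p = 0.148). BBS7 and BBS9 of the BBSome core had 0.88 contralaterally (rho = 0.78, permutation p = 0.00131 and 0.0106, adjusted p for r = 0.0196) and 0.59 ipsilaterally.

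CEP192 and CEP152 had r = 0.81 contralaterally (rho = 0.94, permutation p = 0.00203 and 0.00034, adjusted p for r = 0.0203) and 0.67 ipsilaterally (adjusted p = 0.148). IFT140 and IFT122 had 0.82 ipsilaterally (rho = 0.79, permutation p = 0.00365 and 0.00860, adjusted p for r = 0.0274) and 0.31 contralaterally. Without the 2 farthest libraries these 4 values were 0.75, 0.75, 0.82 and 0.81. Of the genes in these pairs all but IFT140 (0.43) had r of 0.72 to 0.94 with the leading axis of the other features, and the part of that axis in the correlations was not tested. Other partners gave lower or negative values. KIF3A and KIF3B had r = 0.02 and 0.37, IFT88 and IFT52 had 0.05 and 0.01, and BBS2 and BBS7 had −0.27 and −0.64, of which 0 passed.

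Other genes of the same structures are given for context, from lists drawn up with earlier results known. Of 14 further IFT and BBSome genes tested, 9 were above 0 between pregnant and cyclic mares ipsilaterally and 12 contralaterally, with medians of 0.08 and 0.10, and 0 passed. Of 19 transition zone genes 11 and 12 were above 0 (medians 0.06 and 0.03, the latter −0.03 in CPM), and of 22 centriole genes 14 and 20 (0.07 and 0.20). The motile axoneme list, the dyneins and spokes that make cilia beat, had 26 and 27 of 28 above 0, with medians of 0.20 and 0.24 (0.15 and 0.17 in CPM). The median of the 64 members was 0.09 and 0.10 in the same comparisons.

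Lists for other cells are given for the same pregnancy comparisons. Stromal markers had log2 differences below 0 in 8 of 8 genes on both sides, with medians of −0.48 and −0.43, except that 2 of 8 were above 0 ipsilaterally in edgeR, in DESeq2 and with reads as a covariate. Leukocyte markers were above 0 in 10 and 12 of 12 (medians 0.56 and 0.63), in CPM in 8 and 12. Proliferation markers were above 0 in 15 and 23 of 23, with medians of 0.08 and 1.05 (0.33 and 1.17 in edgeR), and CEP55 lay in the same direction. No gene of these lists passed, and their part in the members' values was not tested.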

How the data were processed

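RNA had been sequenced from 20 oviduct libraries, 5 a group. The deposited signal is counts per gene after TMM normalization, which multiplies each library by 1 factor. Per the labels' protocols a stranded total RNA kit with ribosomal RNA depletion was used, although another label gives polyA RNA. CASAVA 1.8 is named per the submitters' processing notes. Aligner, counter, strand setting, genome build and annotation were not given in the sources used here. Hence overlapping and antisense genes cannot be separated and no coordinates are given. Whole reads were recovered from the steps of each column (100% of values within 0.01 reads). A library value of 0 allows up to 3 reads, and such floors cover counting error only.

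Features above 1 CPM in at least 5 libraries were tested with limma 3.58.1 (R 4.3.3) on log2(deposited value + 3.03), equal to 0.5 CPM, with 4 group means, trend and robust moderation, 2-sided tests and Benjamini-Hochberg adjustment over 14692 features. A log2 difference on this scale understates the change of low genes. Alternatives were edgeR 4.0.16 quasi-likelihood and DESeq2 1.42.0 on the recovered reads, CPM without TMM, pseudocounts of 0.1 and 2 CPM, a filter at 5 CPM or none, a replicate block, only the groups compared, leaving out each library, and leaving out PI1, PI4 and CI3. Correlations, partner pairs, counts above 0 and the log2 reads covariate were added after the data were seen. The limma comparison of PI with CI and the permutation correlation were run on simulated data. These had independent libraries, without pairs or a shared axis, so they do not show how the tests behave with either.

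The members, lists and tests were chosen with earlier results of these data known. Named members are fixed representatives, the 5 with the smallest p in each comparison, those with extreme levels or spread, and those with extreme correlation with FOXJ1 or TOP2A. Others were chosen after their values were seen. Values of 1 of the 64 members are not reported here, although counts and medians over all members include it; figures show the other 63. Pregnant libraries of the same number deviated together from their group means (r = 0.70, 0.60, 0.53, 0.64 and 0.59 over all features), and each PI library correlated best with its own number, so the numbers were taken to pair PI with PC. The labels do not say which libraries share a mare.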

Additional observations from a re-analysis of the deposited data

Results flagged for a closer look

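In each group of 5 libraries the highest and lowest value of 63 members was compared with the rest by Dixon's criterion, which flags about 1 in 20 groups by chance. It marked 11 of 252 combinations of member and group, 3 of them in PC1. This is 4.37%, below the 4.91% marked over all features and close to that chance rate. In PC1 CEP164 stood at 685 normalized counts while the other PC libraries had 382 to 451. IFT52, an IFT-B core subunit, was low there at 479 against 623 to 650, as was IFT57 at 741 against 1265 to 1438. In the other PC libraries, IFT88 was low in PC2 at 606 against 876 to 1004, and the IFT-A gene WDR35 was low in PC4 at 312 against 468 to 527.

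BBS4 was low in PI1 at 276 against 322 to 332, CEP70 low in PI2 at 149 against 190 to 205, and CEP170 high in PI5 at 666 against 335 to 401. In cyclic mares CEP120 was high in CI5 at 1024 against 778 to 835, and the small GTPase genes IFT27 and IFT22 stood out in CI4 (166 against 101 to 115) and CC4 (40.1 against 59.3 to 69.0).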

How the results depend on the processing

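No member passed the adjusted threshold in any of the 5 comparisons under any alternative run, and none of the 5 members with the smallest p in each comparison turned in sign. Among the other differences given, some between PI and CI turned under at least 1 alternative. Those under 0.1 in size, with the value farthest across 0, were BBS10 (0.11), BBS12 (0.09), BBS4 (0.03), CEP290 (−0.21), CEP83 (−0.15), DYNC2LI1 (0.11), IFT57 (−0.09), IFT80 (−0.05), KIF3A (0.07), KIF3B and KIFAP3 (−0.0016 and −0.0024, both in CPM). The larger ones turned with log2 reads as a covariate: CEP192 (−0.08), WDR35 (−0.03) and CEP152, which turned also without CI4 (−0.07 at most across 0). The counts of members above 0 were less stable. With log2 reads as a covariate they were 14 of 64 for the sides in pregnant mares (48.2% of all features) and 10 for the interaction (50.9%), whose median became −0.17. In CPM, which shifts all features alike, it was 28 for the sides in cyclic mares (32.8% of all features). The cause was not tested. Leaving out single libraries gave 43 to 54 (ipsilateral), 31 to 57 (contralateral), 39 to 43 (sides, pregnant), 37 to 54 (sides, cyclic) and 17 to 37 (interaction). The lowest values came without CC2 (contralateral) and CC4 (interaction), and without PC4 the interaction count was 19. At an unadjusted p under 0.05 leaving out single libraries gave 0 to 5 members ipsilaterally, 5 without CI3, and 0 to 4 contralaterally, 4 without CC5 and 0 without PC4.

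With the replicate number as a block, in the pregnant and the cyclic groups alike, 0 members passed. In cyclic mares same-numbered libraries had r = 0.29, 0.68, 0.02, −0.04 and 0.62, and 3 of 5 correlated best with their own number. Not every pair exceeded 0.1, so these numbers were not taken to pair the libraries, although some of them may share a mare, which was not tested. The block gave CEP78 an unadjusted p of 0.0446 for the sides in cyclic mares (adjusted p = 0.9999) and raised the features at an unadjusted p under 0.05 from 112 to 464 in pregnant and from 42 to 240 in cyclic mares.

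In CPM 9 members correlated with reads ipsilaterally instead of 19, and 0 with TOP2A in CPM or with a pseudocount of 0.1 CPM. Leaving out the 2 libraries farthest in TOP2A or FOXJ1 turned r for BBS12 and TOP2A to 0.064 and 0.14, for CEP68 and TOP2A ipsilaterally to −0.24 (−0.041 in CPM), for BBS2 and FOXJ1 ipsilaterally to −0.45 and for CEP97 and FOXJ1 ipsilaterally to −0.015. Depth limits CEP55 and CEP295NL most, at 2 and 7 reads in their lowest libraries.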
